A study of Mus musculus with 4 samples.

Results

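Apoe and 9 other genes of lipoprotein and lipid transport were followed by their messenger RNA in control and KAT6A knockout (KO) mouse embryonic stem (ES) cells. KAT6A is a histone acetyltransferase of the MYST family. The 10 genes were taken by symbol from the 41543 gene symbols counted in each library: the apolipoproteins Apoe, Apoc1, Apoa1, Apob and Apom, the transporters Abca1, Abcg1 and Mfsd2a, the lipase Lpl and the receptor Lrp1. All 10 were present in the tables and all 10 passed the filter on low counts that 16112 genes passed. They were picked with the difference between the groups in view, so their values, and the calls of the fit over all genes, are given for them as a description and support nothing. All cells were of the E14TG2a line, grown on gelatin in medium with 15% fetal calf serum and 100 units/ml of the cytokine LIF. Control cells (2 libraries) were compared with KAT6A KO cells (2 libraries), in which the gene had been disrupted with CRISPR/Cas9. The labels do not say whether the KO cells came from 1 clone, nor whether replicates were separate cultures. The p-values therefore cover no more than the spread among these 4 libraries. A fit with 1 library left out takes the spread of that library's group from the other group alone. Calls gained or lost in such fits are therefore no measure of replication.

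The libraries held 27494041 to 37354623 counts. Kat6a RNA itself was at 145 and 143 CPM (counts scaled to library size, which makes the library totals nearly equal) in control replicates 1 and 2. It was at 242 and 86.4 CPM in the libraries labelled KAT6A KO, in the same order. The first KO library was thus above and the second below both controls, so the RNA level does not bear out the labels, and "KO library" below means a library so labelled. Over all tested genes the log2 difference between libraries of a group had an SD of 0.17 for the controls and 0.35 for the KO libraries. Markers of ES cells were high in every library, with 4731 to 4797 CPM summed over 9 genes in the controls and 5754 to 6394 CPM in the KO libraries, and 2 of the 9 (Esrrb and Dppa5a) rose. Esrrb was not called with either control left out (adjusted p = 0.123 and 0.108), nor Dppa5a without control replicate 2 (0.159). Markers of extraembryonic endoderm, a lineage that secretes lipoproteins in the early embryo and can arise in serum cultures, summed to 272 and 276 CPM in the controls and to 70.3 and 151 CPM in the KO libraries. Of their 11 tested genes 4 fell (Gata4, Gata6, Sox7 and Pdgfra), 2 rose (Hnf4a and Amn), and none of the 12 was at 0 in all libraries. DESeq2 called 5 lower and 2 higher, limma-voom 7 lower and 1 higher, and 10 had an unadjusted p under 0.05 in edgeR. Hnf4a was not called with either control left out (adjusted p = 0.0742 and 0.0724) nor Amn without control replicate 1 (0.132), with the GC-content offset (0.0731), with the filter at 1 CPM (0.0517) or in limma-voom (0.0512), and Gata4 and Pdgfra were not called with no low-count filter (0.279 and 0.107). In whole cultures, fewer cells of a type and less RNA per cell cannot be told apart.

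Lipids travel between cells in particles wrapped by apolipoproteins. Lipases on cell surfaces release fatty acids from the particles, endocytic receptors take the particles up, and ATP-binding cassette (ABC) transporters load cholesterol back onto acceptor particles. Apoe is the ligand by which remnant particles bind these receptors, and Abca1, Abcg1 and Apoe are well known targets of the liver X receptors (LXR), nuclear receptors that sense oxysterols.

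Of the 10 genes, 4 were called higher in the KO libraries (Apoe, Apoc1, Abcg1 and Lrp1) and 2 lower (Lpl and Mfsd2a). A call here is an adjusted p under 0.05 in edgeR's quasi-likelihood test, fitted over all genes. Apoa1, Apob, Apom and Abca1 were not called. Over all tested genes 14.3% were called, 5.76% higher and 8.57% lower. Because the genes were picked on this contrast, nothing is read from the count or from any single call. By range alone, both KO libraries lay above both controls for 5 of the genes (the same 4 and Apom) and below them for 2, where the shares over all tested genes were 31.5% and 32.8%. The median log2 fold change was 0.37 for the 10 genes and 0.01 for all tested genes.

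**Figure D1:**
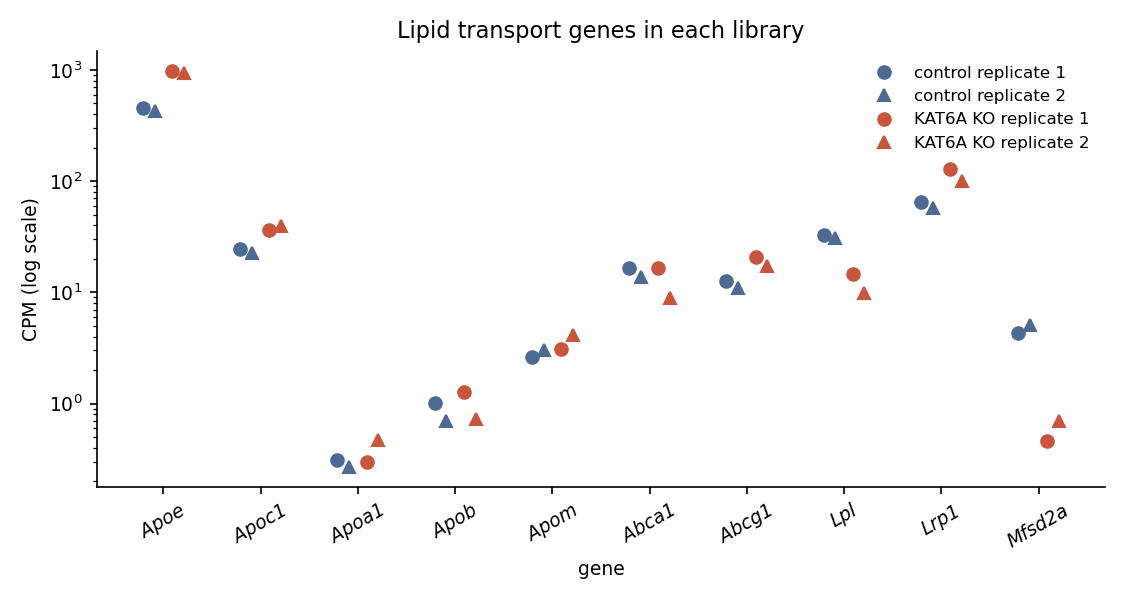
Level of each gene in CPM (log scale) in the 4 libraries; circles are replicate 1 and triangles replicate 2, blue for control and red for KAT6A KO. Apoe stands highest, at 423 to 987 CPM, and the KO points of Mfsd2a, at 0.460 and 0.691 CPM, lie farthest below their controls.

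The start-site windows of 4 genes are shown because the title of the series concerns KAT6A at CpG islands and because they run from the most abundant gene (Apoe) to the one with the lowest count (Apoa1), with the greatest decrease (Mfsd2a). Each holds 250 bases before and 50 after the RefSeq start (GRCm38.p6), reads 5′ to 3′ on the gene's strand, and has every CpG in capitals. Windows were found for 7 of the 10 genes, and those of Apoe, Lrp1 and Mfsd2a lie on the start of the gene model used for positions.
Apoe, chr7:19699139-19699438, minus strand: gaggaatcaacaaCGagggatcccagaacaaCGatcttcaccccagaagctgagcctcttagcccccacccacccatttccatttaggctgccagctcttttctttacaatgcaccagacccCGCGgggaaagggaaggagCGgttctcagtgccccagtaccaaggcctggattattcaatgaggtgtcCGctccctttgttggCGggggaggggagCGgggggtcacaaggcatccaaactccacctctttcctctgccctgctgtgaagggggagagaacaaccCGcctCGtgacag
Lrp1, chr10:127621099-127621398, minus strand: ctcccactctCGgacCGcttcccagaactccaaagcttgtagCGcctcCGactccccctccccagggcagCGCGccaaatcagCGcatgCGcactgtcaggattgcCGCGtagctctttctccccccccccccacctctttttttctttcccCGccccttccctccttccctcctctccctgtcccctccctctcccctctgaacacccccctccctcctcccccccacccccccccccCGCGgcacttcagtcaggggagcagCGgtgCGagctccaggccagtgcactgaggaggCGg
Mfsd2a, chr4:122961139-122961438, minus strand: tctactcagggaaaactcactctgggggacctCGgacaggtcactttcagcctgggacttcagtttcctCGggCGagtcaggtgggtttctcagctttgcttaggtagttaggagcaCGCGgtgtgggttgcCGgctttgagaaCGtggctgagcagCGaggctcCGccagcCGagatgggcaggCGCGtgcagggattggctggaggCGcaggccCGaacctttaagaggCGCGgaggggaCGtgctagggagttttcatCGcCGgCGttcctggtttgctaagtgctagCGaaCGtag
Apoa1, chr9:46228380-46228679, plus strand: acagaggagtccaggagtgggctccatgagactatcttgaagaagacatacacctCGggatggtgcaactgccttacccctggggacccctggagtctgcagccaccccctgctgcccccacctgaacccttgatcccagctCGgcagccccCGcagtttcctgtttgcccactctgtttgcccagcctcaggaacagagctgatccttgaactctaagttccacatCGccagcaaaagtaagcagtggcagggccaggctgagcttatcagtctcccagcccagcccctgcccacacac
The Apoe window holds 10 CpGs, the Lrp1 window 16, the Mfsd2a window 22 and the Apoa1 window 4, against a median of 7 over 32851 such windows.

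Called CpG-rich here was a window with at least 50% GC and an observed to expected CpG ratio of at least 0.6, which 33.5% of all windows met. Taking the window nearest each gene's start, 2 of the 7 genes met it, Abca1 (26 CpGs, ratio 0.89) and Mfsd2a (ratio 0.85). Lrp1 lay just under the limit at 0.59. Apoe (0.40), Apom (0.42), Apob (0.37) and Apoa1 (0.16) did not meet it. A second RefSeq start of Apoe, 567 bases inside the gene, has 12 CpGs and a ratio of 0.62, which meets it. The 2 CpG-rich genes thus include the gene that was lowest in the KO libraries relative to controls and a gene that was not called.

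Short motifs were searched on both strands of the 7 nearest windows. AGGTCA, the core letters bound by nuclear receptors, occurred in Mfsd2a alone among them, and in 16.3% of all windows. The spaced repeat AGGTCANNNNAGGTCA, in which an LXR element is often written and which contains AGGTCA at each end, was in none of the 7 and in 0.0152% of all windows. TATAAA was in Apob and Abca1 (13.6% of all windows), GGGCGG in Abca1 and Lrp1 (35.7%), CCAAT in Mfsd2a (37.4%) and CACGTG in Abca1 (7.15%). These are matches of letters within 300 bases and say nothing about binding.

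Apoe (chromosome 7, 19696109-19699188, minus strand, GRCm38) was at 456 CPM in control replicate 1, 423 CPM in control replicate 2, 987 CPM in KAT6A KO replicate 1 and 940 CPM in KAT6A KO replicate 2. Both KO libraries lay far above both controls, and the libraries of each group lay close together. The mean was 439.6 ± 23.2 CPM (SD, n = 2) in the controls and 963 ± 33.3 CPM (SD, n = 2) in the KO libraries, a log2 fold change of 1.13 ± 0.09 (SE) or 2.19-fold. Against the control mean the KO libraries were 2.25-fold and 2.14-fold higher. In the authors' deposited table the log2 fold change of Apoe was 1.09 with a standard error of 0.11. These values rest on 15674 to 30037 counts per library.

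Apoc1 encodes a small apolipoprotein that slows the clearance of particles and inhibits lipoprotein lipase. It lies on chromosome 7 at 19689481-19692660, on the minus strand, 3.45 kb beyond the end of Apoe. It was at 24.4 and 22.7 CPM in the controls and at 36.2 and 39.6 CPM in the KO libraries. The groups did not overlap, and the log2 fold change was 0.69 ± 0.11 (SE), or 1.61-fold. Without control replicate 1 it was 0.73 and without control replicate 2 it was 0.64, and in neither case was Apoc1 called.

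Apom carries sphingosine 1-phosphate on high-density lipoprotein (HDL) and lies on chromosome 17 at 35128997-35132050, on the minus strand. Its levels were 2.62 and 3.05 CPM in the controls and 3.12 and 4.11 CPM in the KO libraries. The lower KO library was barely above the higher control. The log2 fold change was 0.35 ± 0.22 (SE), and Apom was not called. Without KAT6A KO replicate 1 the log2 fold change was 0.53.

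Apob is the structural protein of very-low-density and low-density lipoprotein, and Apoa1 that of HDL. Apob (chromosome 12, 7977648-8016835, plus strand) was counted 36 and 26 times in the controls and 39 and 20 times in the KO libraries, or 1.01, 0.702, 1.28 and 0.728 CPM. Apoa1 (chromosome 9, 46228580-46230466, plus strand) was counted 11 and 10 times in the controls and 9 and 13 times in the KO libraries, or 0.310, 0.270, 0.296 and 0.473 CPM. The groups overlapped for both genes. From the summed counts, the KO to control ratio was 1.19 for Apob, with a 95% exact binomial interval of 0.821 to 1.73, and 1.31 for Apoa1, with an interval of 0.689 to 2.51; the intervals cover counting error only. At this depth no difference was detectable for either gene. The sign for Apob turned when control replicate 2 was left out (log2 fold change -0.0036) or KAT6A KO replicate 1 was left out (-0.23).

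Thus Apoe and Apoc1, the apolipoproteins with the highest levels among the 10 genes, were higher in both KO libraries, while the main structural proteins of the large particles and of HDL were near the limit of counting. The extraembryonic endoderm markers given above moved the other way on balance, with a median log2 fold change of -1.26 over 11 tested genes. Among secreted products of that lineage, Afp was counted 12 and 2 times in the controls and 1 and 0 times in the KO libraries, and Ttr 14, 5, 2 and 18 times. Their part in the apolipoprotein values was not tested.

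Lrp1 is a large endocytic receptor that takes up particles carrying Apoe. It lies on chromosome 10 at 127538161-127621148, on the minus strand. It was at 64.6 and 57.7 CPM in the controls, 129 CPM in KAT6A KO replicate 1 and 100.4 CPM in KAT6A KO replicate 2. Both KO libraries lay above both controls and differed from each other more than the controls did. The log2 fold change was 0.91 ± 0.14 (SE), or 1.87-fold. Its start-site window, shown above, has 16 CpGs, more than 67.0% of all windows hold.

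Abca1 and Abcg1 export cholesterol, Abca1 to lipid-poor Apoa1 and Abcg1 to HDL. Abcg1 (chromosome 17, 31057675-31117988, plus strand) was at 12.6 and 10.9 CPM in the controls and at 20.96 and 17.4 CPM in the KO libraries. The groups did not overlap, and the log2 fold change was 0.71 ± 0.15 (SE), or 1.63-fold. Without control replicate 1 it was 0.81 and without control replicate 2 it was 0.61, and Abcg1 was not called in either case. Abca1 (chromosome 4, 53030787-53159895, minus strand) was at 16.5 and 13.8 CPM in the controls, 16.7 CPM in KAT6A KO replicate 1 and 8.88 CPM in KAT6A KO replicate 2. The first KO library was level with the controls and the second was below both. The KO libraries thus differed 1.88-fold from each other, and the log2 fold change over both was -0.24 ± 0.29 (SE). Without KAT6A KO replicate 1 it was -0.77, and without KAT6A KO replicate 2 it was 0.14. These exporters, both known LXR targets, therefore had opposite signs in the fit over all libraries, and whether they differ from each other was not tested.

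Lpl is the lipase that frees fatty acids from triglyceride-rich particles. It lies on chromosome 8 at 68880491-68907448, on the plus strand. It was at 33.1 and 30.7 CPM in the controls and at 14.8 and 9.89 CPM in the KO libraries. Both KO libraries lay below both controls, KAT6A KO replicate 2 the lower of them. The log2 fold change was -1.37 ± 0.19 (SE), a level 2.58-fold lower. In the authors' deposited table the log2 fold change of Lpl was -1.21.

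Mfsd2a, the sodium-dependent transporter that brings lysophosphatidylcholine with docosahexaenoic acid into cells, had the greatest difference of the 10 genes. It lies on chromosome 4 at 122946850-122961188, on the minus strand. It was counted 153 and 188 times in the controls, but 14 and 19 times in the KO libraries, or 4.30, 5.08, 0.460 and 0.691 CPM. The start-site window of Mfsd2a shown above has more CpGs than 76.9% of all windows. That of Abca1, which was not called, has more than 83.1% of them, and that of Apoe more than 56.5%. A link between CpGs and the differences was not tested. Every KO value of Mfsd2a was far below every control value. The log2 fold change was -3.03 ± 0.27 (SE), a level 8.16-fold lower, and the ratio from the summed counts was 0.121 with a 95% exact binomial interval of 0.0821 to 0.174. In the authors' deposited table the log2 fold change of Mfsd2a was -1.94, smaller in size than here; the reason was not tested. Lpl and Mfsd2a were lower in the KO libraries, where the extraembryonic endoderm markers summed to less (70.3 and 151 CPM, against 272 and 276 CPM). From KAT6A KO replicate 1 to replicate 2 Mfsd2a went up with the marker sum (0.460 to 0.691 CPM). Lpl went the other way (14.8 to 9.89 CPM). The part of those cells in the values of both genes was not tested.

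**Figure D2:**
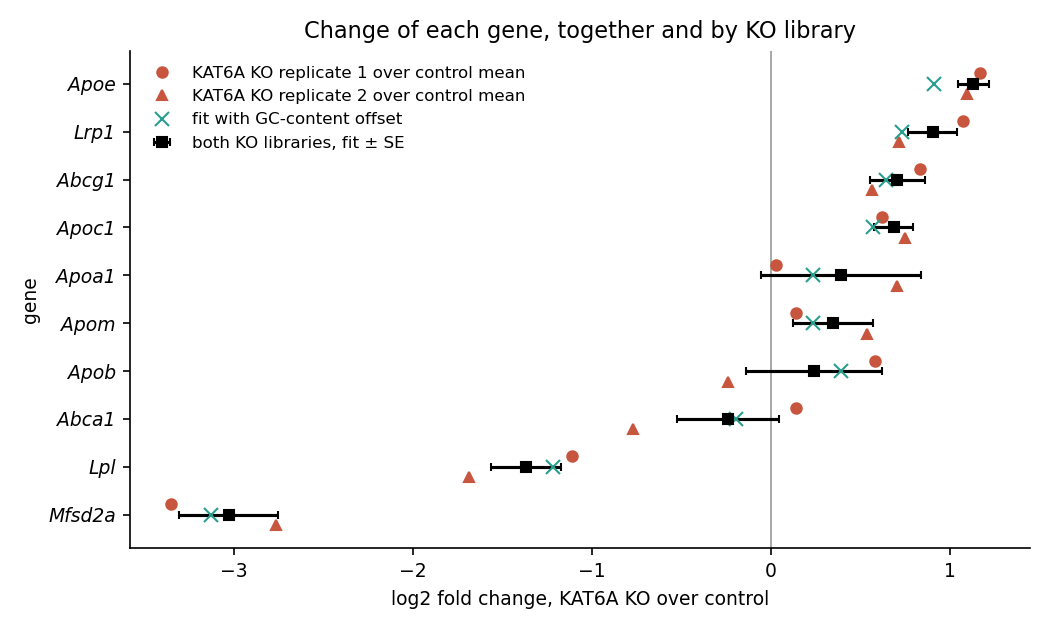
Log2 fold change of each gene, KAT6A KO over control: black squares with bars are the fit over both KO libraries ± SE, red points each KO library over the control mean, and green crosses the fit with a GC-content offset. Mfsd2a lies at -3.03 and Apoe at 1.13, and the KO libraries fall on opposite sides of 0 for Apob and Abca1.

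GC content moved with the difference between groups over all genes. The median log2 fold change was -0.22 in the lowest of 5 equal GC classes of tested genes and 0.23 in the highest. Apoe (59.5% GC), Lrp1 (57.9%) and Apoa1 (56.8%) are in the highest class, and Lpl and Apob (both 43.5%) in the lowest. With a GC-content offset the log2 fold change of Apoe was 0.91 and that of Lrp1 was 0.74. Lpl was then at -1.21 and Mfsd2a (54.2% GC) at -3.13. Each of the 6 called genes was still called with the offset. None of the 10 lies on chromosome 11, whose tested genes had a median log2 fold change of -0.46, while the medians of the chromosomes that carry the 10 genes ran from -0.00 to 0.15.

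Levels of different genes were compared per length, as RPKM (CPM divided by the length of the merged exons in kilobases). In the controls Apoe was highest at 206 ± 10.9 RPKM (SD, n = 2), above 99.3% of all tested genes, followed by Apoc1 at 31.6 ± 1.61 RPKM. Then came Lrp1 (3.45 RPKM), Lpl (3.04), Apom (2.80), Mfsd2a (2.08), Abcg1 (1.61) and Abca1 (1.46). Apoa1 at 0.234 RPKM and Apob at 0.0615 RPKM were last. Neighbours whose libraries overlapped were Lpl with Apom and Abcg1 with Abca1; the other neighbours in this order did not overlap. Measured by the longest coding transcript, a length added after seeing the data, Lpl (7.74 RPKM) stood above Lrp1 (4.11 RPKM), and no other rank moved.

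In the KO libraries Apoe was at 451 ± 15.6 RPKM and Apoc1 at 50.9 ± 3.23 RPKM. The ratio of Apoe to Apoc1 per length was 6.50 in the controls and 8.85 in the KO libraries. Lrp1 (6.46 RPKM), Apom (3.57), Abcg1 (2.62), Abca1 (1.24) and Lpl (1.18) followed, then Apoa1 (0.311), Mfsd2a (0.256) and Apob (0.0721). Mfsd2a moved from the sixth place to the ninth and Lpl from the fourth to the seventh. In the KO libraries the overlapping neighbours were Abca1 with Lpl and Apoa1 with Mfsd2a.

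Apoe and Apoc1 lie in a cluster of genes on chromosome 7 that also holds Tomm40, part of the mitochondrial import pore, and Nectin2 and Bcam, which encode adhesion molecules. Nectin2, 17.5 kb upstream of Apoe, rose from 127 and 139 CPM to 183 and 202 CPM (log2 fold change 0.53 ± 0.09 SE, adjusted p = 0.0199). Bcam, farther on, rose from 110.1 and 112 CPM to 154 and 155 CPM (0.47 ± 0.08 SE, adjusted p = 0.017). Tomm40, 2.13 kb from Apoe and between it and Nectin2, was not called (0.27 ± 0.12 SE, adjusted p = 0.166), but was without KAT6A KO replicate 1 (0.42). On the far side of Apoc1, Clptm1 was not called (-0.09 ± 0.08 SE, adjusted p = 0.426). Farther still, Clasrp rose (0.50 ± 0.12 SE, adjusted p = 0.0432); it was named after its values were seen, and was not called with the GC-content offset (adjusted p = 0.0591) or with a control left out (0.147 and 0.214). The genes next to Apoe thus had smaller fold changes than Apoe itself, a difference between genes that was not tested. Without control replicate 1 Nectin2 and Bcam were not called (adjusted p = 0.194 and 0.208), nor were they without control replicate 2 (0.0539 and 0.155), and Bcam was not called with the GC-content offset (log2 fold change 0.21, adjusted p = 0.124). All tested genes of chromosome 7 had a median log2 fold change of 0.15.

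**Figure D3:**
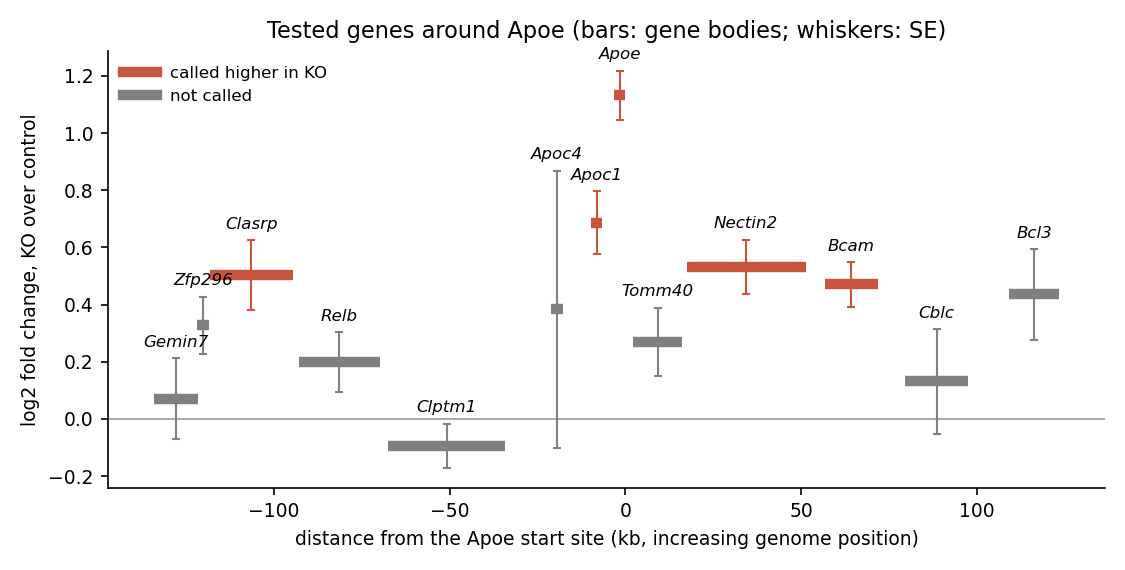
Log2 fold change, KAT6A KO over control, of each tested gene near Apoe against its distance from the Apoe start site in kilobases; horizontal bars are gene bodies, whiskers are the SE, red marks genes called higher and grey genes not called. Apoe at 1.13 is highest, Apoc1 stands at 0.69, and Tomm40, between Apoe and Nectin2, is at 0.27.

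The nearest tested genes on each side of the 10 genes made 36 distinct neighbours, of which 2 rose (Nectin2, and Bag6 next to Apom at 0.43 ± 0.09 SE, adjusted p = 0.0336) and 1 fell (AI427809, a long noncoding RNA near Abca1, at -1.22 ± 0.29 SE, adjusted p = 0.0416). Bag6 and AI427809 were not called with the GC-content offset (adjusted p = 0.108 and 0.0511) or with either control left out (0.227 to 0.279). The median log2 fold change of the 36 was 0.09. Over all tested genes 5.76% were called higher and 8.57% lower. The neighbours of Mfsd2a were Cap1 (0.06), Mycl (0.12), Ppt1 (-0.09) and Trit1 (-0.16), none of them called. No neighbour of Lpl or of Lrp1 was called either.

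Among 9264 genes of at least 10 CPM on average, the 5 with a profile over the 4 libraries closest to that of Apoe were Plcd1, Cplx1, Cspg5, Jak3 and Trim63. Likeness was the Euclidean distance between log2 CPM profiles set to 0 at the control mean, and it ran from 0.112 for Plcd1 to 0.185 for Trim63. Plcd1, a phospholipase C, was at 23.8 CPM in both controls and at 57.3 and 50.9 CPM in the KO libraries. Jak3, a cytokine receptor kinase, was at 19.8 and 20.4 CPM in the controls and at 48.1 and 39.8 CPM in the KO libraries. With 4 libraries in 2 groups, such a list gathers genes of like fold change, here 1.13 to 1.22 on the log2 scale.

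The wider machinery of lipid transport was described with 8 lists holding 144 other genes, some of them in more than 1 list, of which 119 were tested. Of these 4 rose and 18 fell, or 3.36% and 15.1%, beside 5.76% and 8.57% over all tested genes, and 97 were not called. Their median log2 fold change was -0.06. Of the 18 that fell, 5 lie on chromosome 11, where 11 of the genes were tested, and 13 are among the 108 tested elsewhere. The counts moved with single libraries: without control replicate 1 none rose, without control replicate 2 none rose and 11 fell, without KAT6A KO replicate 1 28 rose and 43 fell, and without KAT6A KO replicate 2 33 rose and 38 fell. With the GC-content offset 2 rose.

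The list of other apolipoproteins also holds Apobr, Apoo and Apool, whose part in lipoproteins was not examined. Of its 11 tested genes none was called, none had an unadjusted p under 0.05, and DESeq2 and limma-voom called none. Without KAT6A KO replicate 1, 2 were called higher and 5 lower. Clu (clusterin), the most abundant, was at 148 and 143 CPM in the controls, 42.1 CPM in KAT6A KO replicate 1 and 121 CPM in KAT6A KO replicate 2 (log2 fold change -0.84 ± 0.42 SE, adjusted p = 0.212). Both KO libraries were below both controls but far apart from each other. The log2 fold change of Clu was -0.27 without KAT6A KO replicate 1 and -1.79 without KAT6A KO replicate 2. Apoc2, the activator of Lpl, and Apoh had no count in any library.

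Of the 20 tested lipoprotein receptors and their partners 1 fell, Lrp2 (megalin), from 96.4 and 98.6 CPM to 74.7 and 70.9 CPM (-0.42 ± 0.08 SE, adjusted p = 0.0263), and none rose. Without control replicate 1 or 2 Lrp2 was not called (adjusted p = 0.213 and 0.273). DESeq2 and limma-voom each called none of the receptors higher and 2 lower, and 8 had an unadjusted p under 0.05. Without KAT6A KO replicate 1, 2 were called higher, and without KAT6A KO replicate 2, 7 were. The difference between Lrp1 and the other receptors was not tested.

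Of the 14 other tested ABC transporters of lipids 1 rose and 4 fell (1 and 3 in DESeq2). Abca7, a phospholipid exporter close in sequence to Abca1, rose from 24.99 and 24.97 CPM in the controls to 41.5 and 34.0 CPM (0.60 ± 0.13 SE, adjusted p = 0.0307). Abca8b (-1.93 ± 0.34 SE, adjusted p = 0.0191) and Abca5 (-1.44 ± 0.28 SE, adjusted p = 0.025) fell, and both lie on chromosome 11. Abcd3, a transporter of the peroxisome membrane, fell by 0.51 on the log2 scale (SE 0.09, adjusted p = 0.0224). The fourth was Abca12, named after its values were seen, counted 26 and 20 times in the controls and 4 and 1 times in the KO libraries. Abca7 and Abcd3 were not called with the GC-content offset or with either control left out (adjusted p from 0.0619 to 0.172), nor were Abca8b and Abca12 without control replicate 1 (0.0542 and 0.0817).

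Of the 15 tested lipases and genes of particle assembly 1 rose and 4 fell (2 and 4 in DESeq2). Sar1b, the coat GTPase that carries large lipoprotein cargo out of the endoplasmic reticulum, fell from 73.7 and 73.2 CPM to 34.3 and 33.6 CPM (-1.11 ± 0.09 SE, adjusted p = 0.00498); it lies on chromosome 11. Lipg, the endothelial lipase and a relative of Lpl, fell from 7.82 and 6.78 CPM to 2.23 and 2.62 CPM (-1.59 ± 0.19 SE, adjusted p = 0.01). Lipa, the lysosomal acid lipase, fell (-0.55 ± 0.11 SE, adjusted p = 0.0257), and Lipe, the hormone-sensitive lipase, rose (0.59 ± 0.14 SE, adjusted p = 0.0415). The fourth that fell was Sel1l, which aids the maturation of Lpl (-0.37 ± 0.09 SE, adjusted p = 0.0438), named after its values were seen and not called with either control left out (0.402 and 0.272). Lipa and Lipe were not called with the GC-content offset or with either control left out (adjusted p from 0.067 to 0.397). Gpihbp1, the capillary anchor of Lpl, had no count in any library.

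Of the 13 tested nuclear receptors of the LXR, RXR and PPAR families, their cofactors and the Srebf factors 2 rose and 1 fell. DESeq2 called 3 higher and 1 lower, and the 1 lower was Srebf1 (adjusted p = 0.0383). Pparg, which fell here, got no adjusted p in DESeq2 and did not pass the filter at 1 CPM. Rxra, the shared partner of LXR and PPAR, rose from 34.9 and 37.3 CPM to 51.3 and 51.8 CPM (0.51 ± 0.09 SE, adjusted p = 0.0215). Rxra was not called with either control left out (adjusted p = 0.280 and 0.145). Pparg, a regulator of fat storage, was counted 21 and 14 times in the controls and 0 and 1 times in the KO libraries, a ratio of 0.0358 with a 95% exact binomial interval of 0.000882 to 0.213 (adjusted p = 0.0246). Nr1h2, the LXR form with most reads here, was not called (0.41 ± 0.11 SE, adjusted p = 0.0553). Its adjusted p was 0.0264 in DESeq2 and 0.212 with the GC-content offset. Over the alternatives its log2 fold change ran from 0.15 with that offset to 0.52 without KAT6A KO replicate 1.

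Of 12 other tested LXR targets none rose and 2 fell, both enzymes of fatty acid synthesis. Scd1, a desaturase, fell from 100.00 and 113 CPM to 70.9 and 58.1 CPM (-0.72 ± 0.12 SE, adjusted p = 0.0182). Fasn, the fatty acid synthase, on chromosome 11, fell from 385 and 466 CPM to 239 and 315 CPM (-0.62 ± 0.16 SE, adjusted p = 0.047), and was not called without control replicate 2 (adjusted p = 0.158) or with the filter at 1 CPM (0.0536). The median of the list was -0.25, and 8 of its genes had an unadjusted p under 0.05. DESeq2 called 2 of the list higher and 4 lower, and limma-voom none higher and 2 lower. Apoe (1.13) and Abcg1 (0.71), named above as LXR targets, had the opposite sign to the list's median. Abca1 had the same sign (-0.24 ± 0.29 SE), but was not called, and its sign turned without KAT6A KO replicate 2. Whether others of the 10 genes are LXR targets was not examined. Srebf1, which drives both enzymes, was not called (-0.45 ± 0.14 SE, adjusted p = 0.0745). Over the alternatives its adjusted p ran from 6.02e-20 without KAT6A KO replicate 2 to 0.308 without control replicate 2.

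Of 20 tested genes of fatty acid and lysolipid uptake none rose and 3 fell, while 9 had an unadjusted p under 0.05. DESeq2 called 1 higher and 5 lower, and limma-voom none higher and 4 lower. Spns2, an exporter of sphingosine 1-phosphate on chromosome 11, fell from 12.0 and 11.3 CPM to 3.55 and 4.77 CPM (-1.49 ± 0.19 SE, adjusted p = 0.0103). Acsl3 and Acsl4, which activate long-chain fatty acids, fell by 0.63 (SE 0.10, adjusted p = 0.017) and by 0.76 (SE 0.17, adjusted p = 0.0342) on the log2 scale. Without control replicate 2 Acsl3 was not called (adjusted p = 0.0758). Cd36, the fatty acid translocase, was counted 7 and 2 times in the controls and never in the KO libraries. Mfsd2a, a lysolipid importer, had a log2 fold change greater in size than any of these 3.

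Of 18 tested genes of sterol transport inside the cell none rose and 3 fell, the same counts as in DESeq2 and limma-voom, while 6 had an unadjusted p under 0.05. Without KAT6A KO replicate 1, 5 were called higher and 7 lower. Stard4, a cytosolic sterol carrier, fell from 94.7 and 99.3 CPM to 57.3 and 59.4 CPM (-0.73 ± 0.08 SE, adjusted p = 0.00933). Npc1, which moves cholesterol out of lysosomes, fell (-0.43 ± 0.09 SE, adjusted p = 0.0301), as did Gramd1c (-1.14 ± 0.29 SE, adjusted p = 0.0484). With either control left out neither Npc1 nor Gramd1c was called (adjusted p from 0.0817 to 0.371), and Gramd1c was not with the GC-content offset (0.103). The median of this list was 0.07.

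**Figure D4:**
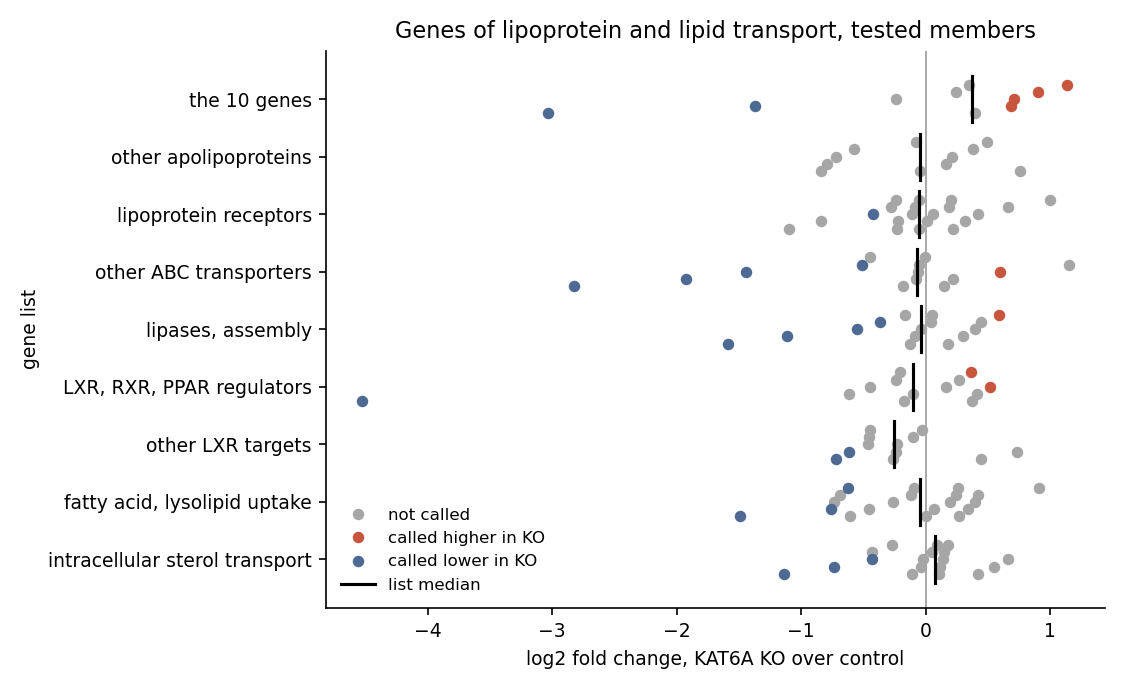
Log2 fold change, KAT6A KO over control, of every tested gene of the 10 genes (top row) and of the 8 lists; red points were called higher, blue lower and grey not called, and the black bar is the list's median. Pparg, at the far left of the nuclear receptor row, rests on 21, 14, 0 and 1 counts.

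Markers of other cells that handle lipoproteins were also read. The 5 tested fibroblast markers were not called (2 had an unadjusted p under 0.05; DESeq2 called none) and summed to 25.9 to 26.2 CPM in the controls and 27.9 to 33.1 CPM in the KO libraries, with Lum at 0. Macrophage markers summed to 22.9 to 27.5 CPM in the controls and 18.7 to 20.6 CPM in the KO libraries; Lyz2 and C1qa were at 0 in all libraries, and of 3 tested genes 1 (Csf1r) fell. Endothelial markers summed to 243 to 269 CPM in the controls and 177 to 244 CPM in the KO libraries, with Emcn at 0. Of 7 tested genes 1 (Cdh5) fell, and 4 had an unadjusted p under 0.05 in edgeR. The other macrophage markers with counts were Cd68, at 20.9 to 24.9 CPM in the controls and 17.9 to 19.7 CPM in the KO libraries, and Fcer1g, Ptprc, Tyrobp and Adgre1, each under 1 CPM. Whether such cells were present, and their part in the values of the 10 genes, was not tested.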

How the data were processed

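The 4 libraries of E14TG2a cells were made with a stranded kit for polyadenylated RNA, per the labels' protocols. The authors deposited whole-number counts for each gene symbol. The tools featureCounts and DESeq2 are listed in the submitters' processing notes, with no version or role. The aligner, and the build, annotation and strand rule for counting, were not given in the sources used here; overlapping genes therefore cannot be separated. The authors also deposited normalized counts, a signal equal to each library's counts over a single factor (1.11, 1.15, 0.945 and 0.848). A headerless table deposited by the authors holds their own comparison, read by column order and values. It gives a mean signal and the authors' log2 fold change of KO over control. It gives a standard error and a Wald statistic, each held as a score made by the authors. The authors' p-value and adjusted p-value close the deposited table.

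For the values given here, edgeR 4.0.16 in R 4.3.3 was run on the counts (filterByExpr by group, TMM, robust quasi-likelihood test of the group, Benjamini-Hochberg adjustment over 16112 genes, threshold 0.05). CPM uses TMM-scaled library sizes (factors 0.992 to 1.01). Each SE is the log2 fold change over the root of its F statistic. Total counts were 35616899, 37354623, 30185640 and 27494041 (control 1 and 2, KAT6A KO 1 and 2), and intervals cover counting error only. GENCODE M21 on GRCm38 gave positions, exon lengths and GC content and held 97.3% of the symbols; RefSeq on GRCm38.p6 gave the start-site windows. Python 3.11.15, pandas 2.3.3, scipy 1.17.1 and matplotlib 3.10.9 made tables, intervals and plots. The fit was first tested on simulated data.

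The 10 genes and all gene lists were chosen with earlier results of these data known. Named were the 10 genes, up to 3 called genes per direction of each lipid list and of the Apoe neighbours by smallest p (or the most abundant where none was called), and the 5 genes with a profile closest to Apoe. A few others were named after their values were seen, as neighbours, as known regulators or to complete a count; some single genes of the lists are not reported here. Alternatives were RLE or no scaling, no low-count filter or at least 1 CPM in 2 libraries, DESeq2 1.42.0, limma-voom (limma 3.58.1), a replicate block, a GC-content offset (lowess span 0.3), block and offset together, and the omission of each library in turn. After an omission, the remaining library of its group borrows its spread from the other group.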

Additional observations from a re-analysis of the deposited data

How the results depend on the processing

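The 10 genes were picked on this contrast, so their ranges over the 13 alternatives are a description and no support. The log2 fold change ran from 0.91 to 1.18 for Apoe, 0.72 to 1.07 for Lrp1, -1.69 to -1.11 for Lpl, -3.34 to -2.76 for Mfsd2a, 0.57 to 0.75 for Apoc1 and 0.56 to 0.83 for Abcg1; Apoc1 and Abcg1 were not called with either control left out. The sign turned for Apob without control replicate 2 (-0.0036) and without KAT6A KO replicate 1 (-0.23), within a range of -0.23 to 0.58, and for Abca1 without KAT6A KO replicate 2 (0.14), within a range of -0.77 to 0.14. With each library left out in turn, the number of the 10 genes called was 2 to 5 higher and 2 to 3 lower, that over all genes 254 to 4020 higher and 648 to 4400 lower, and that over the lipid lists 0 to 33 higher (28 and 33 without the KO libraries) and 11 to 43 lower. Over the lipid lists the number called higher was 7 with no low-count filter, 8 with DESeq2 and 2 with the GC-content offset, and the causes were not tested. The replicate numbers are shared by the groups, and the labels do not say whether same-numbered libraries were paired. Over all tested genes, the difference between replicates 1 and 2 correlated at 0.13 between the groups. With 2 pairs this cannot settle whether same-numbered libraries share more than a number. With the replicate block, 1613 genes were called higher and 2147 lower, and 14 genes of the lipid lists were called higher. Each of the 6 called of the 10 genes was still called with the block, while Gata4 was not (adjusted p = 0.169). Counts of 9 to 39 limit Apoa1 and Apob, whose direction is not settled at this depth, and 2 libraries per group limit the rest.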
